A study of Mus musculus with 21 samples.

Results

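GABA is the main inhibitory transmitter of the forebrain. It is made from glutamate by a pair of glutamate decarboxylases, packed into vesicles, released from interneurons and striatal neurons, and cleared by plasma membrane transporters into neurons, astrocytes and cells of the meninges, where a transaminase breaks it down. It acts on pentameric chloride channels, the GABA-A receptors, assembled from alpha, beta, gamma, delta, epsilon, theta and rho subunits, and on the G protein-coupled GABA-B receptor, a dimer of Gabbr1 and Gabbr2. Gephyrin (Gphn) and neuroligin 2 (Nlgn2) hold GABA-A receptors at the postsynaptic membrane, and parvalbumin (Pvalb) is the calcium buffer of fast-spiking interneurons.

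The 25 genes described here are a list of GABA receptor, synthesis and transport genes, matched by name. Earlier results of these data were known when the list was made. They are 12 GABA-A subunits, 2 rho subunits, 2 GABA-B subunits, Gad1 and Gad2, the vesicular transporter Slc32a1, the plasma membrane transporters Slc6a11 and Slc6a13, the transaminase Abat, and Gphn, Nlgn2 and Pvalb. Each symbol matched 1 Ensembl gene of the 55401 in the count table. Of the 25 genes, 24 passed the filter on low counts over all mice and were tested. Gabra6 did not pass.

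RNA-seq was done on forebrains of 21 mice that carried human APOE in place of mouse Apoe on both alleles. The parental groups E2H, E3H and E4H (homozygous for APOE2, APOE3 or APOE4, 3 mice each, 9 to 10 months old) had no tau transgene. Their PS19 counterparts, PS/E2H, PS/E3H and, last, PS/E4H (4 mice each), had in addition the PS19 transgene, human P301S mutant tau driven by the mouse prion promoter, as a heterozygous transgene, and were killed when both hind limbs were paralyzed. The APOE lines were kept on C57BL6 and the PS19 line on B6/C3H, so tau genotype, paralysis, age at death and strain background cannot be told apart in the comparisons of PS19 with parental mice. The study reports that PS/E3H mice reached paralysis later than PS/E2H and PS/E4H mice. APOE genotype and age at death therefore also cannot be told apart among PS19 mice, or in differences of tau effects between lines.

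The libraries held 59265459 to 75932183 counts. Values are given as CPM (counts scaled to library size with edgeR's TMM factors) for comparisons of 1 gene between mice, and as FPKM (fragments scaled to transcript length and depth by the authors) where levels of different genes are compared. Prnp, whose promoter drives the transgene, was at 1420 to 1936 CPM in PS19 mice and at 821 to 993 CPM in parental mice, and Gfap was higher in every PS19 mouse than in any parental mouse. In 4 libraries markers of other brain regions stood apart. The cerebellar gene Cbln3 was above 0.3 FPKM in the third E2H, the fourth PS/E2H and the second PS/E3H mouse, and the hypothalamic gene Pmch was at 0.382 FPKM in the second E4H mouse against 18.9 FPKM or more in the other 20. In the second E2H and the second PS/E2H mouse, counts fell most steeply with transcript length (slope -0.174 and -0.129 against -0.0837 to 0.0948 in the other 19). Xist was at 2.53 to 2.85 CPM in 4 mice (1 E4H, 1 PS/E2H, 2 PS/E4H) and at 202 CPM or more in the other 17, whereas the study's methods name the same number of mice of the same groups as the females and call the others male. By either source the sexes were unevenly spread over the groups, and sex was not in the main fits.

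The promoters of 5 members are printed first, since the results below turn on these genes: Gad1 and Gad2, which rose together, Gabra4 and Gabra5, which fell, and Gabrb1, a neighbour of Gabra4 that did not pass the test. Each line gives the 250 bases before the RefSeq start site (GRCm38.p6), 5′ to 3′ on the gene's strand. Capitals mark the GC box, spelled GGGCGG. They also mark the TATA box, spelled TATAAA, and the pentamer that gives the CCAAT box its name. All were read on both strands and at any place in the window. A mark is therefore a match of letters, and its use as a promoter element was not tested. The windows are chr2:70561879-70562128 (plus strand) for Gad1, chr2:22622077-22622326 (plus) for Gad2, chr7:57510060-57510309 (minus) for Gabra5, chr5:71658309-71658558 (minus) for Gabra4 and chr5:71657671-71657920 (plus) for the first start site of Gabrb1.
Gad1: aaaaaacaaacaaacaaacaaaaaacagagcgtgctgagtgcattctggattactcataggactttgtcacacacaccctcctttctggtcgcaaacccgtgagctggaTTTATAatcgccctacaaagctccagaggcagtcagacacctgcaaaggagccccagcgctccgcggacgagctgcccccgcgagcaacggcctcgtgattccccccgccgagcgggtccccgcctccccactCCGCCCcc
Gad2: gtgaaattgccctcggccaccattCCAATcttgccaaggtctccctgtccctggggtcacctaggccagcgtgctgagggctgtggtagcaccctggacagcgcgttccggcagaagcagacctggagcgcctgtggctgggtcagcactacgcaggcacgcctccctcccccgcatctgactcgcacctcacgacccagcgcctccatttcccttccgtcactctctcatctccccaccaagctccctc
Gabra5: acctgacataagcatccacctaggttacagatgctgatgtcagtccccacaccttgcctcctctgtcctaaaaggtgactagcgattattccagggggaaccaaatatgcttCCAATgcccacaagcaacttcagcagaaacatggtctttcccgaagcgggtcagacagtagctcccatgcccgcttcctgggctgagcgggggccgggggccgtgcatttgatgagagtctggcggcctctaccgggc
Gabra4: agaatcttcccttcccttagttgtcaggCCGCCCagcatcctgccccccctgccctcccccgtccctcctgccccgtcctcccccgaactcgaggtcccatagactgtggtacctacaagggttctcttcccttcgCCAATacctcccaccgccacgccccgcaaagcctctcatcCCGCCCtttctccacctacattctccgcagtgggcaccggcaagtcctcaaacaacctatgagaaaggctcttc
Gabrb1: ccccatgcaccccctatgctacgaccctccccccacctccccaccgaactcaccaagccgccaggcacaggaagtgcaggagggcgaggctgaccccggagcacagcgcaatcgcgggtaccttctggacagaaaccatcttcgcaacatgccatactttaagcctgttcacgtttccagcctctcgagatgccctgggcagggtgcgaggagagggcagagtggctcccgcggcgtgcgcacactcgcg

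The Gad1 window held 1 TATA box and 1 GC box, and the Gad2 window held neither of these and 1 CCAAT box, so the genes of both decarboxylases share none of the 3 motifs. Gabra5 held 1 CCAAT box. Gabra4 held 2 GC boxes and 1 CCAAT box, and Gabrb1 held none of the 3. Of all 32851 RefSeq windows of this length, 32.7% held a GC box, 12.4% a TATA box and 33.8% a CCAAT box. RefSeq gave 30 windows for 23 members, of which 14 windows held a GC box, 4 a TATA box and 12 a CCAAT box. Counted by gene, which is not the measure of the shares above, 14 of the 23 members held a GC box, 3 a TATA box and 11 a CCAAT box in at least 1 window. Gabra4 and Gabrb1 lie on opposite strands of chromosome 5 with start sites 387 bases apart and exons that overlap. Whether counts were assigned by strand is not given in the sources used here, so reads from the overlap could count for either gene.

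Members of the GABA-A family lie in clusters in this genome (GENCODE M21, GRCm38). Gabrg1 (chr5:70751047-70842617), Gabra2 (chr5:70957597-71095849), Gabra4 (chr5:71569749-71658308) and Gabrb1 (chr5:71658113-72149037) form one on chromosome 5. Gabrg3 and Gabra5 are neighbours on chromosome 7, Gabra6 and Gabrb2 on chromosome 11, Gabre, Gabra3 and Gabrq on the X chromosome, and Gabrr2 and Gabrr1 on chromosome 4. The members could be told apart by sequence. At most 2.77% of the 50-base windows of a member's transcripts, in Gabrr2, also occurred in another gene, and 17 members shared none.

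The most abundant member was Gabbr1, at a median of 89.6 FPKM over the 21 mice (83.8 to 96.6). Pvalb (median 60.4 FPKM), Gad1 (59.7 FPKM) and Slc6a11 (57.8 FPKM) followed and were not separated: Pvalb was above Gad1 in 6 of 21 mice, and Gad1 above Slc6a11 in 14. Abat came next at 44.8 FPKM, then Gad2 (35.5 FPKM), Gabbr2 (33.2 FPKM), Slc32a1 (33.1 FPKM), Nlgn2 (32.6 FPKM) and Gabra3 (32.3 FPKM), whose neighbours in the order changed places between mice. The alpha subunit with the highest FPKM among the 5 on the list was Gabra3, followed by Gabra5 (18.6 FPKM), Gabra4 (17.7 FPKM) and Gabra2 (13.4 FPKM). At the low end were Gabrr2 at 0.661 FPKM, Gabre at 0.473 FPKM and Gabrr1 at 0.0957 FPKM, and Gabra6 had a median of 0. Of the 24 neighbouring pairs in this order, 7 kept it in all 21 mice.

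**Figure D1:**
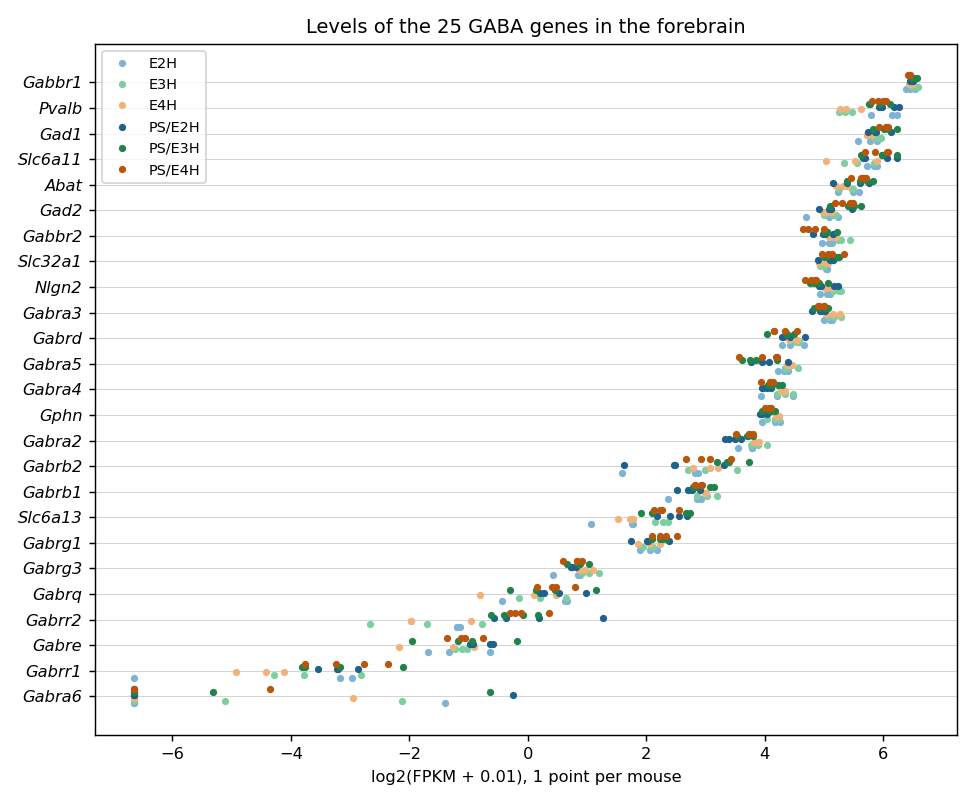
Level of each of the 25 genes in each of the 21 mice, as log2(FPKM + 0.01) on the horizontal axis, ordered by median and coloured by group. Gabbr1 has the highest points, and most Gabra6 points sit at the left edge because 13 mice had 0 counts.

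Over all 21 mice, with the APOE line held constant, 14 of the 24 tested members were called between the 12 PS19 and the 9 parental mice (edgeR quasi-likelihood test, Benjamini-Hochberg adjusted p under 0.05 over all 20539 genes tested), against 23.9% of all genes tested. Both decarboxylases, both plasma membrane transporters, Abat, Pvalb and Gabrr2 rose, 7 in all, against 12.9% of all genes called higher. All 4 tested alpha subunits fell, as did Gabbr2, Nlgn2 and Gphn, 7 in all, against 11.0% of all genes called lower. Apart from Gabrr2, no called member moved by more than 0.55 on the log2 scale. The median log2 fold change of the 24 was 0.13, beside -0.00 for all genes. Of the 14, 12 had the same sign in each of the 3 APOE lines, and the other two, Pvalb and Nlgn2, were near 0 with the opposite sign in the APOE2 line. Because these are whole forebrains, fewer cells of a type and less RNA per cell cannot be told apart.

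**Figure D2:**
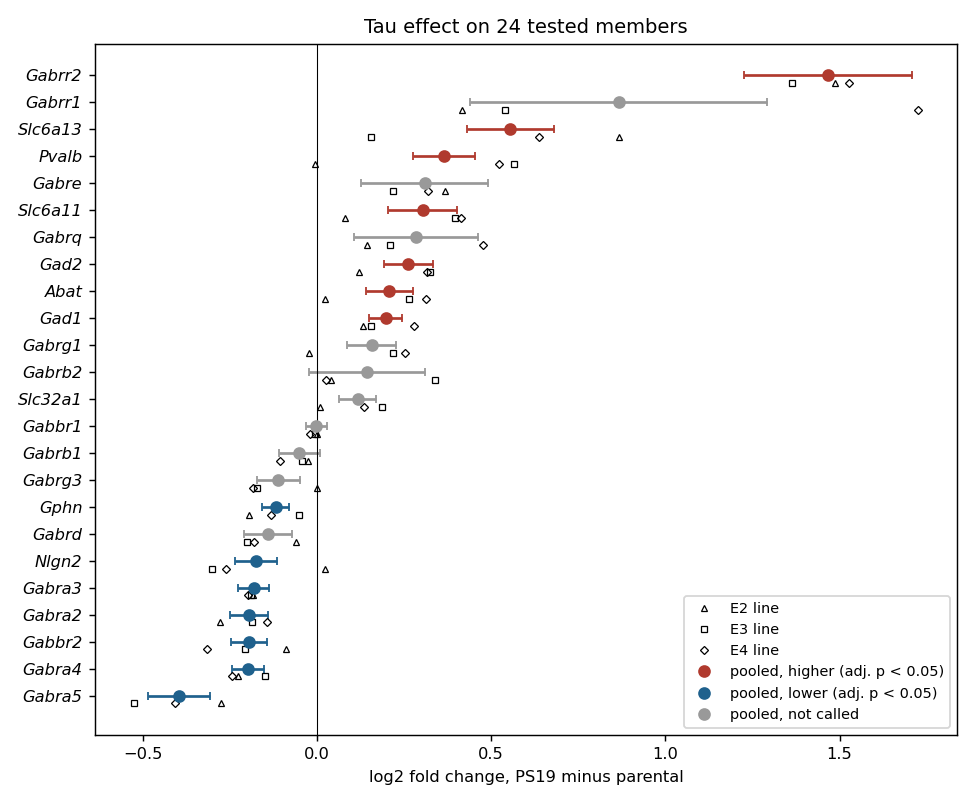
Log2 fold change of each of the 24 tested members, PS19 minus parental, with the APOE line held constant (filled circles, bars are the standard error) and within each APOE line (open symbols). Red and blue circles are the 7 members called higher and the 7 called lower at an adjusted p under 0.05, and grey circles were not called.

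Gad1 and Gad2, the enzymes that make GABA, rose by a similar fraction. Gad1 was at 495, 432 and 456 CPM in E2H, 474, 478 and 499 CPM in E3H, 437, 438 and 463 CPM in E4H, 495, 458, 577 and 499 CPM in PS/E2H, 482, 613, 542 and 535 CPM in PS/E3H, and 505, 563, 561 and 544 CPM in PS/E4H. All PS/E4H mice were above all E4H mice, whereas the groups of the APOE2 and APOE3 lines overlapped. Its mean was 531 ± 44.5 CPM (SD, n = 12) in PS19 and 464 ± 24.9 CPM (SD, n = 9) in parental mice, a log2 fold change of 0.20 (SE 0.05, edgeR adjusted p = 0.0036).

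Gad2 was at 240.0, 181 and 217 CPM in E2H, 203, 214 and 226 CPM in E3H, 200.4, 211 and 222 CPM in E4H, 226, 199, 282 and 223 CPM in PS/E2H, 224, 309, 279 and 269.8 CPM in PS/E3H, and 232, 294, 286 and 244 CPM in PS/E4H. Again only the groups of the APOE4 line were separate. The log2 fold change of Gad2 over the 3 lines was 0.26 (SE 0.07, edgeR adjusted p = 0.0083). Slc32a1, which fills vesicles with GABA, was at 89.2 to 109.7 CPM in parental and 92.6 to 125 CPM in PS19 mice, and its log2 fold change of 0.12 (SE 0.05) had an edgeR adjusted p of 0.12.

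**Figure D3:**
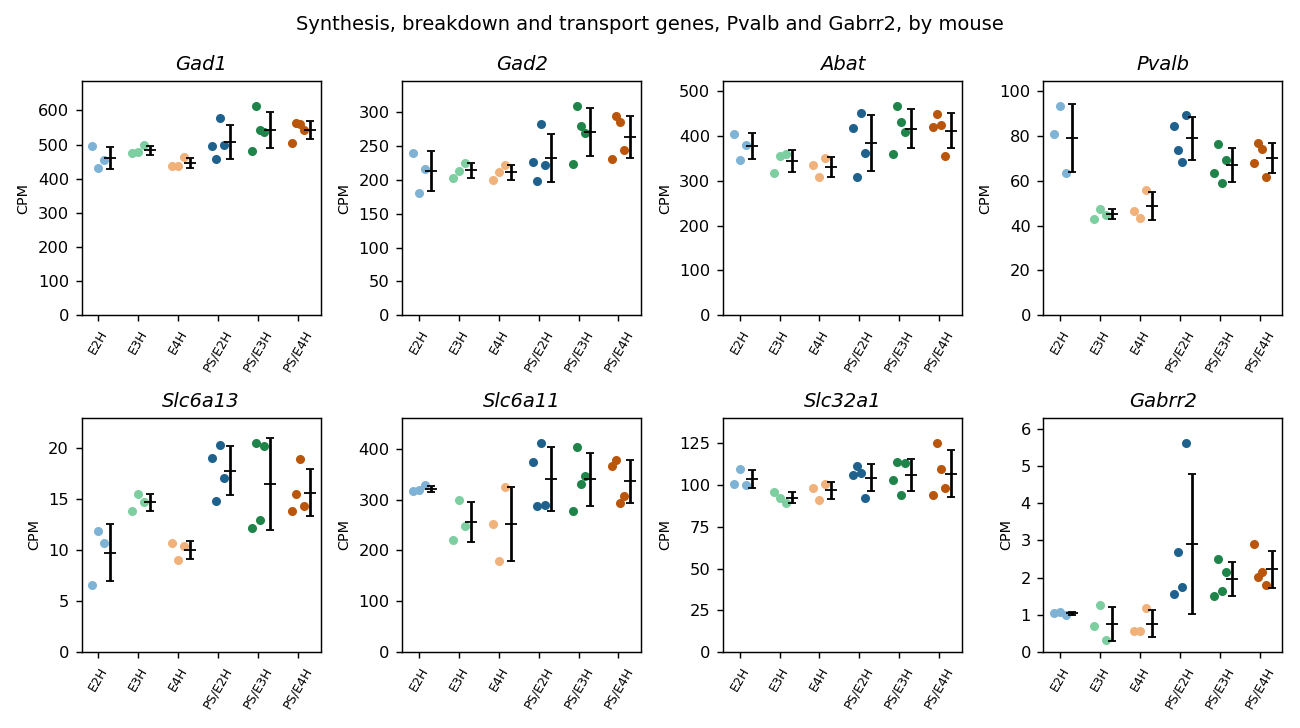
Level in CPM (vertical axis, from 0) of Gad1, Gad2, Abat, Pvalb, Slc6a13, Slc6a11, Slc32a1 and Gabrr2 in every mouse of the 6 groups, with the group mean and SD in black. Gad1, Gad2 and Abat in PS/E4H lie above E4H, and Pvalb in E3H and E4H lies below the other 4 groups.

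The transporters that clear GABA both rose. Slc6a13 (GAT2), known from the meninges and blood vessels, was at 6.57, 11.9 and 10.7 CPM in E2H, 13.8, 15.4 and 14.7 CPM in E3H, 10.7, 8.98 and 10.3 CPM in E4H, 19.0, 14.8, 20.3 and 17.0 CPM in PS/E2H, 12.1, 20.5, 13.0 and 20.2 CPM in PS/E3H, and 13.8, 15.5, 18.9 and 14.3 CPM in PS/E4H. PS19 mice were all above parental mice in the APOE2 and APOE4 lines and overlapped with them in the APOE3 line. The log2 fold change over the lines was 0.55 (SE 0.13, edgeR adjusted p = 0.0025).

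Markers of the leptomeninges moved with Slc6a13. Of 10 such markers, none at 0 counts in any mouse, 7 were called higher in PS19 mice and none lower, with a median log2 fold change of 0.61. Their summed level was 19.2 to 47.0 FPKM in parental and 44.0 to 73.6 FPKM in PS19 mice, and the first E2H mouse was lowest both in this sum and in Slc6a13. The part of leptomeningeal tissue in the Slc6a13 result was not tested.

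**Figure D4:**
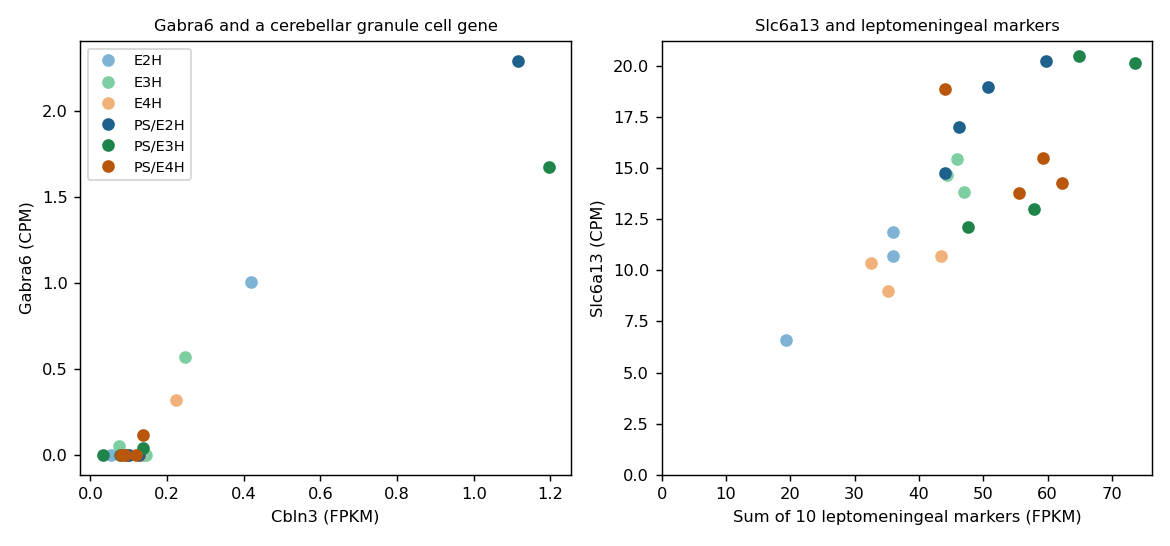
Left, Gabra6 (CPM) against the cerebellar granule cell gene Cbln3 (FPKM); right, Slc6a13 (CPM) against the summed level of 10 leptomeningeal markers (FPKM), 1 point per mouse, coloured by group. The mice with Gabra6 above 1 CPM are the 3 with the highest Cbln3, and the E2H mouse lowest in Slc6a13 (6.57 CPM) has the lowest marker sum (19.2 FPKM).

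Slc6a11 (GAT3), the transporter of astrocytes, was at 317, 318 and 328 CPM in E2H, 220.4, 299 and 248 CPM in E3H, 251, 178 and 324 CPM in E4H, 374, 287, 412 and 290.0 CPM in PS/E2H, 278, 403, 331 and 346 CPM in PS/E3H, and 365, 379, 293 and 307 CPM in PS/E4H. The groups overlapped in every line, and the lowest of the 21 values belonged to the second E4H mouse, in which Pmch was nearly absent. The log2 fold change was 0.30 (SE 0.10, edgeR adjusted p = 0.028), and it was 0.24 (adjusted p = 0.060) without the 4 libraries with other regional markers. Of 12 astrocyte markers, none at 0 counts, 11 were called higher and none lower with a median log2 fold change of 0.39, and their summed level was 626 to 783 FPKM in parental and 939 to 1423 FPKM in PS19 mice. The part of astrocytes in the Slc6a11 result was not tested.

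Abat, which breaks GABA down, was at 405, 347 and 381 CPM in E2H, 317, 356 and 360.4 CPM in E3H, 335, 308 and 350.5 CPM in E4H, 418, 309, 451 and 363 CPM in PS/E2H, 361, 467, 431 and 409 CPM in PS/E3H, and 422, 449, 424 and 356 CPM in PS/E4H. PS19 mice were above parental mice in the APOE3 and APOE4 lines, and the groups of the APOE2 line overlapped. Its log2 fold change was 0.21 (SE 0.07, edgeR adjusted p = 0.028). The call of Abat was lost in 6 of 13 other settings, the most of any called member together with Gphn.

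Apart from the rho subunit Gabrr2, described after them, the tested subunits of the GABA-A receptor fell or did not pass the test. Gabra5, the alpha subunit of extrasynaptic receptors of the hippocampus, fell most. It was at 60.7, 70.4 and 68.5 CPM in E2H, 65.0, 64.0 and 73.0 CPM in E3H, 66.8, 69.0 and 70.4 CPM in E4H, 55.6, 51.4, 43.6 and 69.8 CPM in PS/E2H, 61.4, 42.5, 45.0 and 39.7 CPM in PS/E3H, and 38.2, 51.3, 61.2 and 57.2 CPM in PS/E4H. All PS19 mice but the fourth PS/E2H, the first PS/E3H and the third PS/E4H mouse were below the lowest parental mouse. The log2 fold change was -0.40 (SE 0.09, edgeR adjusted p = 0.0022), and the call held in all 13 other settings.

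Gabra4, an alpha subunit that pairs with the delta subunit in thalamus, striatum and dentate gyrus, was at 148, 111 and 122 CPM in E2H, 121, 127 and 142 CPM in E3H, 126, 134 and 132 CPM in E4H, 111, 106, 113 and 106 CPM in PS/E2H, 127, 107, 125 and 115 CPM in PS/E3H, and 112, 103, 115 and 113 CPM in PS/E4H. The groups were separate only in the APOE4 line. Gabra4 fell by 0.20 on the log2 scale (SE 0.05, edgeR adjusted p = 0.0035). Gabrb1, the beta subunit with the overlapping first exon, was at 84.5 to 132 CPM in parental and 88.3 to 127 CPM in PS19 mice, with a log2 fold change of -0.05 (SE 0.06, adjusted p = 0.58).

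Gabra3 was at 136, 161 and 151 CPM in E2H, 142, 145 and 159.9 CPM in E3H, 138, 151 and 164 CPM in E4H, 122, 142, 129.9 and 134 CPM in PS/E2H, 147, 119, 133 and 129 CPM in PS/E3H, and 135, 139.8, 132 and 122 CPM in PS/E4H. The groups overlapped in every line, and the log2 fold change was close to -0.19 in each (-0.18 in APOE2, -0.19 in APOE3 and -0.20 in APOE4). Over the lines it was -0.18 (SE 0.05, edgeR adjusted p = 0.0050).

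Gabra2, the alpha subunit of many synapses on the cell body and initial segment of principal neurons, was at 97.5, 124 and 115 CPM in E2H, 122, 106 and 131 CPM in E3H, 118, 116 and 124 CPM in E4H, 96.0, 86.1, 100.2 and 89.1 CPM in PS/E2H, 118, 106, 105 and 96.2 CPM in PS/E3H, and 94.5, 113, 119 and 107 CPM in PS/E4H. The groups overlapped in every line. Gabra2 fell by 0.20 on the log2 scale (SE 0.05, edgeR adjusted p = 0.010). Its value within the APOE2 line was -0.28 (SE 0.10).

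**Figure D5:**
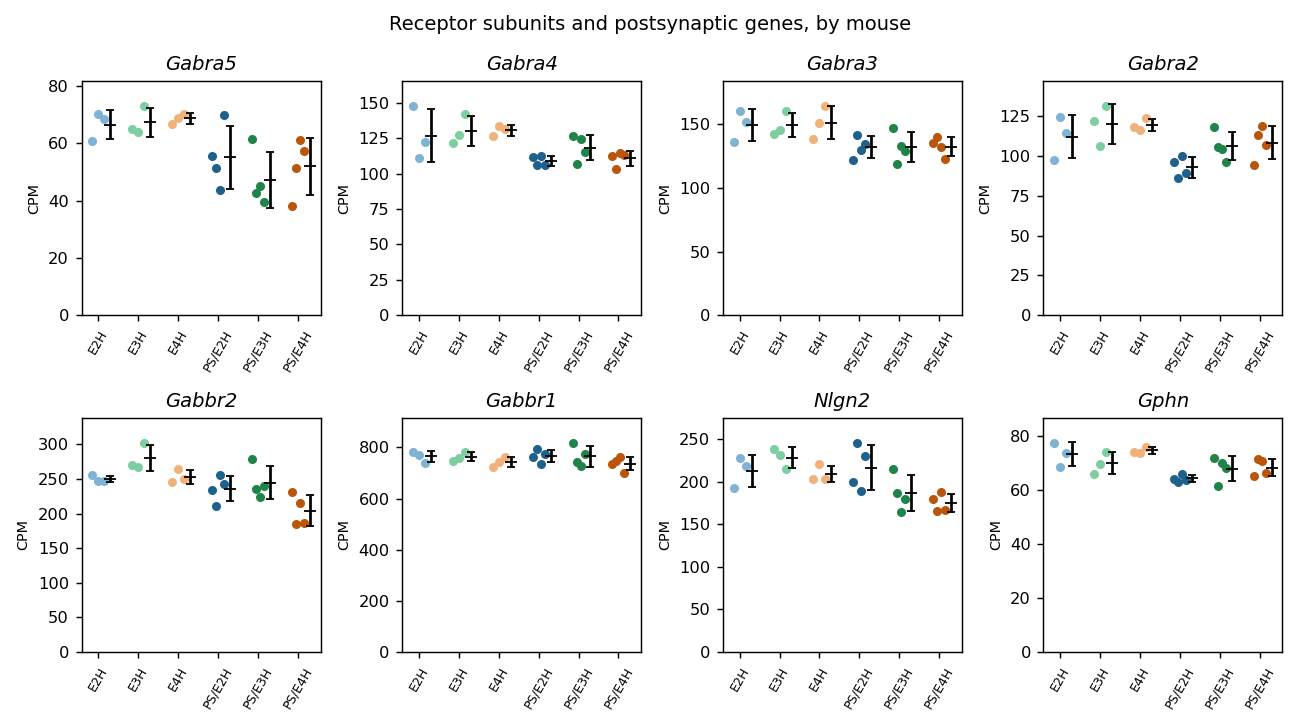
Level in CPM (vertical axis, from 0) of 4 alpha subunits, both GABA-B subunits, Nlgn2 and Gphn in every mouse of the 6 groups, with the group mean and SD in black. Gabbr1 is level over the groups (701 to 818 CPM), and Gabra5 is the widest spread in the PS19 groups (38.2 to 69.8 CPM).

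The other GABA-A subunits were not called. Gabrg1, Gabrb2, Gabre and Gabrq had log2 fold changes of 0.14 to 0.31 with edgeR adjusted p values from 0.12 to 0.58, and Gabrd and Gabrg3 had -0.14 and -0.11 (adjusted p = 0.15 and 0.20). Gabrb2 varied most among the members above 1 FPKM, from 21.8 to 88.6 CPM. Its lowest values, 22.8 CPM in the second E2H and 21.8 CPM in the second PS/E2H mouse, fell in the libraries with the steepest loss of counts with transcript length, and with that slope in the fit its log2 fold change was 0.45 (adjusted p = 0.0092). Gabre and Gabrq, subunits of hypothalamic and brainstem neurons, were at 1.10 and 3.25 CPM in the second E4H mouse, their lowest values among the 21 mice. Of 15 hypothalamic and monoamine neuron markers the summed level was 13.95 FPKM in that mouse and 62.9 to 199 FPKM in the other 20.

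The rho subunits, best known from the retina, were among the least abundant tested members, and of the 14 called members Gabrr2 alone changed by more than 2-fold. It was at 1.04, 1.08 and 0.991 CPM in E2H, 0.692, 1.25 and 0.324 CPM in E3H, 0.566, 0.558 and 1.17 CPM in E4H, 1.57, 2.68, 1.76 and 5.63 CPM in PS/E2H, 1.51, 2.505, 1.64 and 2.14 CPM in PS/E3H, and 2.91, 2.01, 2.16 and 1.79 CPM in PS/E4H. Every PS19 mouse was above every parental mouse, as were 1.52% of all genes tested (1.71% did not overlap in either direction). The counts behind these values ran from 25 to 334. Gabrr2 was 2.76-fold higher in PS19 mice (log2 1.47, SE 0.24, edgeR adjusted p = 0.00011). The highest value belonged to the fourth PS/E2H mouse, 1 of the 3 with cerebellar Cbln3, and without the 4 libraries with other regional markers the log2 fold change was 1.18 (adjusted p = 0.0021). Gabrr1, with 0 to 34 counts per mouse, had a log2 fold change of 0.87 (SE 0.43, adjusted p = 0.15).

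Gabra6, the alpha subunit of cerebellar granule cells, had 0 counts in 13 of the 21 mice and 136 at most. It was at 2.29 CPM in the fourth PS/E2H mouse, 1.68 CPM in the second PS/E3H mouse and 1.01 CPM in the third E2H mouse, and at 0.570 CPM or less in the other 18. Cbln3 was at 1.11, 1.20 and 0.420 FPKM in the same 3 mice and at 0.247 FPKM or less in the rest. The summed level of 13 cerebellar markers was 15.8 to 25.2 FPKM in parental and 18.9 to 31.5 FPKM in PS19 mice. Gabra6 was therefore described by mouse and not compared between the groups in the main fits, apart from the tests of differences between tau effects.

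Of the GABA-B receptor, only Gabbr2, the subunit that couples to G proteins, was called. It was at 256, 247 and 247 CPM in E2H, 270.5, 268 and 302 CPM in E3H, 245, 265 and 250.01 CPM in E4H, 234, 212, 255 and 242 CPM in PS/E2H, 279, 235, 225 and 240.3 CPM in PS/E3H, and 231, 185, 215 and 186 CPM in PS/E4H. The groups were separate only in the APOE4 line, where the values of PS/E4H were all below those of E4H. Gabbr2 fell by 0.20 on the log2 scale over the lines (SE 0.05, edgeR adjusted p = 0.0075). Gabbr1, the subunit that binds GABA, was at 756 ± 31.6 CPM (SD, n = 12) in PS19 and 757 ± 19.5 CPM (SD, n = 9) in parental mice, and its log2 fold change was -0.00 (SE 0.03, adjusted p = 0.97).

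Both postsynaptic organizers fell by a small amount. Nlgn2 was at 192, 227 and 218 CPM in E2H, 238, 231 and 215 CPM in E3H, 203, 220.1 and 204 CPM in E4H, 199.6, 245, 189 and 230.4 CPM in PS/E2H, 215, 187, 164 and 179.6 CPM in PS/E3H, and 180.0, 165, 188 and 167 CPM in PS/E4H. The log2 fold change was -0.17 (SE 0.06, edgeR adjusted p = 0.038), and it missed the threshold in 14 of 21 fits in which a single mouse was omitted. PS/E4H mice were all below E4H mice, whereas within the APOE2 line the log2 fold change was 0.02 (SE 0.11).

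Gphn was at 77.6, 68.7 and 73.9 CPM in E2H, 66.1, 69.8 and 74.2 CPM in E3H, 74.2, 73.9 and 76.3 CPM in E4H, 64.3, 63.3, 66.2 and 63.9 CPM in PS/E2H, 72.1, 61.5, 70.3 and 68.3 CPM in PS/E3H, and 65.2, 71.4, 71.0 and 66.3 CPM in PS/E4H. PS19 mice were below parental mice in the APOE2 and APOE4 lines and overlapped with them in the APOE3 line. Its log2 fold change of -0.12 (SE 0.04, edgeR adjusted p = 0.025) was the smallest of the 14 called.

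Beside the receptor subunits, markers of excitatory neurons moved down. Of 13 such markers, none at 0 counts, 9 were called lower and none higher in PS19 mice, with a median log2 fold change of -0.27, and their summed level was 817 to 1045 FPKM in parental and 629 to 979 FPKM in PS19 mice. Neurod6, a transcription factor of cortical pyramidal neurons, had the smallest adjusted p among them (log2 -0.69, SE 0.11, edgeR adjusted p = 4.9e-05). Of 12 pan-neuronal markers, 4 were called lower and none higher, with a median of -0.11 and a summed level of 1606 to 1745 FPKM in parental and 1458 to 1759 FPKM in PS19 mice. The part of these neurons in the lower alpha subunits, Gabbr2, Nlgn2 and Gphn was not tested.

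Pvalb was at 80.6, 93.3 and 63.3 CPM in E2H, 43.0, 47.4 and 44.5 CPM in E3H, 46.5, 43.6 and 55.7 CPM in E4H, 84.4, 73.8, 68.4 and 89.1 CPM in PS/E2H, 63.5, 76.4, 59.2 and 69.4 CPM in PS/E3H, and 67.9, 76.6, 74.4 and 61.6 CPM in PS/E4H. PS19 mice were above parental mice in the APOE3 and APOE4 lines, whereas the values of E2H mice overlapped with those of all 3 PS19 groups. Over the lines its log2 fold change was 0.36 (SE 0.09, edgeR adjusted p = 0.0045). The call was lost without the 4 libraries with other regional markers (0.28, adjusted p = 0.058), without the APOE3 line (0.26, adjusted p = 0.16) and without the APOE4 line (0.28, adjusted p = 0.14). It was 0.57 (SE 0.09, adjusted p = 0.011) in APOE3, 0.52 (SE 0.10, adjusted p = 0.0082) in APOE4 and -0.01 (SE 0.14, adjusted p = 0.99) in APOE2.

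Other interneuron genes did not rise as a list. Of 28 interneuron markers, 3 were called higher and 3 lower in PS19 mice, with a median log2 fold change of 0.02. The calcium buffer Calb1 had the smallest adjusted p downward (log2 -0.23, SE 0.05, edgeR adjusted p = 0.00061). Vip (0.53) and Htr3a (0.29), higher, and Cck (-0.32) and Cnr1 (-0.19), lower, were named after their values were seen. Sst, the peptide of another large interneuron class, had a log2 fold change of -0.12 (SE 0.08, adjusted p = 0.32). Their summed level was 495 to 610.0 FPKM in parental and 441 to 562 FPKM in PS19 mice.

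Within single APOE lines fewer members were called. In the APOE4 line, PS/E4H against E4H, 9 of 24 were called, against 15.6% of all genes tested (8.62% higher and 6.98% lower). There Pvalb, Slc6a13 (log2 0.64, SE 0.13), Gabrr2 (1.53, SE 0.33), Gad1 (0.28, SE 0.06), Abat (0.31, SE 0.08) and Gad2 (0.31, SE 0.09) rose, and Gabra4 (-0.24, SE 0.06), Nlgn2 (-0.26, SE 0.07) and Gabbr2 (-0.32, SE 0.09) fell. In the APOE3 line only Pvalb was called, against 5.37% of all genes. In the APOE2 line none was called by edgeR, against 0.752% of all genes. In that line 4 members had an unadjusted p under 0.05, against 10.7% of all genes, and DESeq2 called 2, Slc6a13 and Gabrr2, against 1.92% of the genes it tested. Groups did not overlap for 3 members in the APOE2 line (11.7% of all genes), 5 in APOE3 (19.3%) and 13 in APOE4 (28.8%). With a fold of at least 2 also required, 1 member, Gabrr2, was called over all lines (2.63% of all genes) and in APOE4 (2.98%), and none in APOE3 (1.32%) or APOE2 (0.485%). Gabra5 narrowly missed the threshold in the APOE3 (log2 -0.53, SE 0.14, edgeR adjusted p = 0.052) and APOE4 lines (-0.41, SE 0.13, adjusted p = 0.062).

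The count of the APOE4 line rested on single mice. It was 1, Pvalb, without the second E4H mouse, in which Pmch was nearly absent, 2 without the first E4H mouse and 4 without the second PS/E4H mouse. With the length slope in the fit it was 0. The calls over all genes fell in the same fits, from 3252 to 1189, 1529, 2209 and 256. The length slope was 0.0223 to 0.0872 in E4H and -0.0837 to 0.00655 in PS/E4H mice, without overlap. Length slope and tau genotype therefore cannot be told apart in the APOE4 line. In the APOE3 line the count was 0 without the first or the third E3H mouse and 8 without the first PS/E3H mouse, while the calls over all genes went from 1141 to 113, 208 and 2584. Over all lines, the 14 calls fell to 8 without the 4 libraries (Gabbr2, Gabra3, Gabra4, Gabra5, Gabrr2, Gad1, Gad2 and Slc6a13), to 7 without the APOE3 line and to 2, Gabra5 and Gabrr2, without the APOE4 line. These fits held fewer mice, so the falls are not shown to be particular to the members.

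Whether the effect of tau differed between APOE lines was tested for all 25 members in a fit of the 6 groups, with 75 member tests over 3 contrasts. Gabra6, at no counts in most mice, passed the low-count filter only in this fit. None was called by edgeR, as among all 22863 genes (0.0%), and 5 member tests had an unadjusted p under 0.05, against 6.8% (APOE2 minus APOE3), 2.98% (APOE4 minus APOE3) and 11.4% (APOE4 minus APOE2) of all genes. DESeq2 called no member and 0.0293%, 0.0293% and 0.554% of all genes in these contrasts. The smallest adjusted p belonged to Pvalb, whose tau effect in APOE4 was larger than in APOE2 by 0.53 on the log2 scale (SE 0.18, unadjusted p = 0.0065, adjusted p = 0.28). Against APOE3, the tau effect on Pvalb in APOE2 was lower by 0.58 (SE 0.18, adjusted p = 0.70), that on Slc6a13 higher by 0.71 (SE 0.27, adjusted p = 0.73) and that on Nlgn2 higher by 0.32 (SE 0.13, adjusted p = 0.73). A greater number of calls in APOE4 than in APOE2 mice is therefore not shown to be a difference between the lines.

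APOE lines were compared among parental mice and among PS19 mice, whose age at paralysis also differed between lines in the study. No member was called by edgeR in the 70 tests of members among E2H, E3H and E4H, of which 6 had an unadjusted p under 0.05. Of all genes, 0.178% were called between E2H and E3H, 0.162% between E4H and E3H and 0.216% between E4H and E2H, and 14.1%, 6.67% and 12.4% had an unadjusted p under 0.05. Groups did not overlap for 5 members between E2H and E3H (23.3% of all genes), for 3 between E4H and E3H (12.7%) and for 2 between E4H and E2H (21.3%). Pvalb came nearest. E2H mice (79.1 ± 15.04 CPM, SD, n = 3) were all above E3H mice (45.0 ± 2.25 CPM, SD, n = 3), as were 12.9% of all genes tested, with a log2 difference of 0.81 (SE 0.13, edgeR adjusted p = 0.064). DESeq2 called this difference (adjusted p = 7.2e-07), as did the edgeR fit of all 6 groups (0.0044), the fit without the third E2H mouse (0.014) and that without the second E2H mouse (0.039). Over the other settings the adjusted p ran from 7.2e-07 to 0.28, the latter with the length slope in the fit, and it was 0.014 to 0.46 when 1 mouse was left out in turn.

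E4H mice were below E2H mice in Pvalb by 0.69 on the log2 scale (SE 0.15, edgeR adjusted p = 0.25). Slc6a13 was lower in E4H than in E3H mice by 0.55 (SE 0.11, adjusted p = 0.14) and lower in E2H than in E3H mice by 0.60 (SE 0.20, adjusted p = 0.26), and the leptomeningeal markers summed to 44.3 to 47.0 FPKM in E3H against 19.2 to 36.0 FPKM in E2H and 32.6 to 43.4 FPKM in E4H. DESeq2 called 3 of the 70 tests, Pvalb in both comparisons with E2H and Slc6a13 between E4H and E3H. It called 1.81% of all genes between E2H and E3H, 0.403% between E4H and E3H and 0.884% between E4H and E2H, larger shares than edgeR.

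Among PS19 mice no member was called in 72 tests, by edgeR or by DESeq2, and 7 had an unadjusted p under 0.05. Over all genes the share called was 0.113% for PS/E2H against PS/E3H, 0.0197% for PS/E4H against PS/E3H and 0.119% for PS/E4H against PS/E2H, and the share with an unadjusted p under 0.05 was 11.7%, 6.51% and 12.3%. The shares called by DESeq2 were 0.439%, 0.131% and 0.674%. The smallest adjusted p was that of Nlgn2, lower in PS/E4H (175 CPM) than in PS/E2H (216 CPM) by 0.31 on the log2 scale (SE 0.09, edgeR adjusted p = 0.30), with no overlap between the groups, as in 3.34% of all genes. Gabbr2 was lower in PS/E4H than in PS/E3H by 0.27 (SE 0.09, adjusted p = 0.76). Pvalb had a log2 difference of 0.23 between PS/E2H and PS/E3H (SE 0.10, adjusted p = 0.43). No member was separate between PS/E2H and PS/E3H (5.39% of all genes) or between PS/E4H and PS/E3H (3.88%), and Nlgn2 was the only 1 between PS/E4H and PS/E2H (6.84% in either direction).

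Of 30 other genes of GABA signalling (receptor trafficking factors, auxiliary subunits, glutamine and glutamate supply), 28 were tested over all lines, and 7 were called higher and 5 lower, with a median log2 fold change of 0.02. Of all genes tested, 12.9% were called higher and 11.0% lower. Glul, the glutamine synthetase of astrocytes, was the clearest (log2 0.48, SE 0.05, edgeR adjusted p = 5.7e-07), and every PS19 mouse was above every parental mouse. Shisa7, an auxiliary subunit of GABA-A receptors, fell by 0.45 (SE 0.08, adjusted p = 0.00018). Within single lines, 0 of 29 were called in APOE2 (0.752% of all genes), 5 of 28 in APOE3 (5.37%) and 11 of 28 in APOE4 (15.6%).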

How the data were processed

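Forebrain RNA of 21 mice was sequenced as stranded poly(A) libraries. Reads were trimmed with cutadapt, aligned to GRCm38.p5 with HISAT2 and assembled with StringTie, per the study's methods and processing notes, and versions are not given in the sources used here. The authors deposited raw counts per gene (55401 genes) and FPKM per gene (37538 genes). How the counts were derived, and whether by strand, is not given in the sources used here.

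The counts were tested with edgeR 4.0.16 (R 4.3.3): TMM factors, filterByExpr (minimum count 10, minimum total 15), quasi-likelihood tests and Benjamini-Hochberg adjustment over all genes tested, with a call at an adjusted p under 0.05. The 13 comparisons were PS19 against parental mice within each APOE line and over all lines with the line as a covariate, APOE lines among parental and among PS19 mice, and the differences of tau effects between lines. Alternatives used DESeq2 1.42.0, limma 3.58.1 on log2(FPKM + 1) and log2(FPKM + 0.1), other normalization, filters and sample sets. The fits were tested on simulated data, in which DESeq2 made a larger share of false calls than edgeR or limma, and small changes within single lines were rarely called. Python 3.11.15, pandas 2.3.3 and matplotlib 3.10.9 gave summaries and figures.

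Groups were taken from the sample labels. Mice were separate animals, litters are not given, and p-values measure the spread between these mice. The 27 pairs of mice within groups differed by more than sampling noise (chi-square per gene 22.6 to 96.7). Depth was 59265459 to 75932183 counts. The 25 members and all lists were chosen with earlier results of these data known. All members are named, with values of each mouse for the 14 called members, and from each other list at most the leading genes by adjusted p, upward and downward, unless said otherwise. 1 gene is not reported here. The other lists were other GABA genes and markers of interneurons, striatal projection, excitatory, pan-neuronal, hypothalamic and monoamine, and thalamic neurons, astrocytes, microglia, oligodendrocyte lineage, leptomeninges, choroid plexus, cerebellum and olfactory bulb. Promoters came from RefSeq.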

Additional observations from a re-analysis of the deposited data

Results flagged for a closer look

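Of 75 sets of 4 mice (a member in 1 of the PS19 groups), 4 held a mouse whose gap to the nearest other exceeded Dixon's 95% critical value, where chance gives about 1 in 20. Gabra6 was at 2.29 CPM in the fourth PS/E2H mouse, with the other 3 at 0, at 1.68 CPM in the second PS/E3H mouse, and at 0.115 CPM (7 counts) in the second PS/E4H mouse, with the other 3 at 0. Where the other 3 mice are at 0, any value above 0 is flagged, so the rate of 1 in 20 does not apply there. Gabrg3 was at 19.4 CPM in the first PS/E4H mouse and at 23.3 to 23.5 CPM in the other 3.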

How the results depend on the processing

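Gabra5 and Gabrr2 kept their direction and their call in all 13 other settings of the comparison over all lines and in all 21 fits without 1 mouse. The 14 calls over all lines became 1 (Gabrr2) with a fold of at least 2, 8 without the 4 mice with regional markers apart, 7 without the APOE3 line and 2 without the APOE4 line, and were 11 to 16 without 1 mouse, of which at most 14 were among the original calls. Among all genes, the 4906 calls became 2353 without the APOE3 line and 1708 without the APOE4 line. Fits without the mice with regional markers apart also held fewer mice. Their lower counts are not shown to be particular to the members. In the APOE2 line the 0 calls became 2 with DESeq2 and 1 in a fit of all 6 groups, and stayed 0 without any 1 mouse. In the APOE3 line the 1 call became 0 with a fold of at least 2, 7 with DESeq2, 3 with limma on log2(FPKM + 0.1), 2 with a replicate block, 0 with the length slope and 0 to 8 without 1 mouse. In the APOE4 line the 9 calls became 1 with a fold of at least 2, 4 with a replicate block, 5 in a fit of all 6 groups, 1 without the mice with regional markers, 0 with the length slope and 1 to 9 without 1 mouse. Without the low-count filter they became 6. Among parental mice the 0 calls between APOE lines became 3 with DESeq2, 2 in the fit of all 6 groups, 1 without the mice with regional markers and 1 without the libraries of lowest length slope, and 0 to 1 without 1 mouse. The 0 calls among PS19 mice and of the interactions stayed 0 in every setting run. Where a setting changed a count, the cause was not tested, apart from fits of fewer mice. Gabrb1 turned to 0.051 with the length slope. Gabbr1, at -0.00, was at 0.0022 with the replicate block, at 0.0053 without the APOE4 line and at -0.012 to 0.0059 without 1 mouse. Mice with the same replicate number were not shown to be paired (correlations of deviations between tau groups of a line -0.15 to 0.27), so the block, which gave 12 calls over all lines, shares only a number. The settings on regional markers and length slope were chosen after seeing the data. Gabra6, Gabrr1 and Gabrr2 had few counts, and small changes in them were not detectable at this depth.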

Other observations

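Markers of other cell types moved between PS19 and parental mice over all lines, beside the GABA genes. Of 15 microglia markers 14 were called higher and none lower, with a median log2 fold change of 1.57, and the integrin Itgax had the smallest adjusted p (log2 4.33, SE 0.24, edgeR adjusted p = 5.5e-11). Of 12 oligodendrocyte lineage markers 5 were called higher and none lower (median 0.18), and of 10 choroid plexus markers 4 higher and none lower (median 0.36). Striatal projection neurons also use GABA, and of 13 of their markers 1 was called, the transcription factor Bcl11b, lower by 0.33 (SE 0.06, adjusted p = 0.00046), with a median of -0.06. Of 14 tested hypothalamic and monoamine neuron markers 3 were called higher and none lower (median 0.51), with Ddc at 0.94 (SE 0.18, adjusted p = 0.00068). Of 13 cerebellar markers 1 was called higher and 1 lower (median 0.14), and none of 8 thalamic (median 0.10) or 5 tested olfactory bulb markers (median -0.14) was called by edgeR, of which 2 and 0 had an unadjusted p under 0.05.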
